A study of Caenorhabditis elegans with 6 samples.

Results

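The genes described here are the cytosolic heat shock chaperones of *C. elegans* and *hsf-1*, which encodes the heat shock transcription factor. They were chosen by name, with earlier results of these data known. Of 10 named genes, 8 had a value among the 17397 genes of the deposited values: *hsf-1* (WBGene00002004_at), *daf-21* (WBGene00000915_at, also called *hsp-90*), *hsp-1* (WBGene00002005_at), *hsp-70* (WBGene00002026_at), *hsp-16.2* (WBGene00002016_at), *hsp-16.41* (WBGene00002018_at), *hsp-17* (WBGene00002021_at) and *hsp-12.6* (WBGene00002013_at). The other two, *hsp-16.1* (WBGene00002015_at) and *hsp-16.48* (WBGene00002019_at), had no value in the table used and were not analysed here. Of the 8 genes with values, 7 passed the filter on low averages and were tested, and *hsp-12.6* did not pass it. The identifier of *hsp-17* was found through the study's list of differentially expressed genes, which was drawn up on these same arrays, so its presence here is not independent of its values.

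The arrays came from *dcap-1(rf)* worms, which carry the reduction-of-function allele *tm3163* of the decapping cofactor gene *dcap-1*, and from wt worms of the N2 strain. Each strain gave 3 populations of whole adult worms, fed UV-killed OP50 bacteria at 20 °C with 10 µg/mL FUDR and harvested on day 9 of adulthood. Each population was hybridized to an Affymetrix *C. elegans* array of its own. FUDR, which blocks DNA synthesis and keeps progeny from developing, was given to both strains, so no population without it was compared. The mutant is a single allele, and both strains aged before they were sampled, so the values describe mid-aged adults and not the response to a heat shock.

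In the cytosol, HSP90 and HSP70 proteins fold and refold client proteins in cycles of ATP hydrolysis, while small heat shock proteins, which need no ATP, hold unfolding proteins until HSP70 can act on them. HSF-1 binds heat shock elements in the promoters of these genes. Some of them, such as *hsp-1* and *daf-21*, are expressed without stress, whereas *hsp-70* and the *hsp-16* genes are nearly silent in unstressed worms and are induced by heat and other stresses that unfold proteins. HSF-1 is required for normal lifespan in the worm, and the inducible response is known to decline early in adulthood.

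Values are log2 expression levels made by RMA, which normalizes probe signals between arrays before it summarizes them per gene and gives no detection call, so a low value was not known to lie above background and the level of one gene was not set against that of another. The arrays had medians of 2.18 to 2.24, and any pair of them correlated across genes with r of 0.990 to 0.997, where genes are not independent replicates. The targeted gene *dcap-1* measured 4.50, 4.52 and 4.65 in *dcap-1(rf)* replicates 1, 2 and 3, against 5.44, 5.30 and 5.26 in wt replicates 1, 2 and 3, a log2 fold change of -0.77 (SE 0.08, adjusted p = 0.00469 by limma, adjusted as Benjamini and Hochberg). Where its probes lie with respect to the lesion was not analysed here. Markers of the tissues of a whole worm could be matched for 7 of 24 genes, covering body wall muscle, intestine, neurons, hypodermis and sperm. Of the 7, 0 were differentially expressed, where 1.62% of all 13047 genes tested were, so this count says little about tissues. The arrays of the strains did not overlap for 3 of them, each higher in *dcap-1(rf)*, where 18.6% of all genes tested did not overlap. These were the hypodermal collagen gene *col-19* (log2 fold change 0.62, adjusted p = 0.166), the intestinal transcription factor gene *elt-2* (0.20, adjusted p = 0.293) and the synaptic gene *snb-1* (0.16, adjusted p = 0.396). The markers were matched through the study's tables, which outside its list of differentially expressed genes name genes with positive fold changes. Neither the direction nor the number of these genes was therefore read as a result about tissues. The part of these markers in the results was not tested. The germline markers and the oocyte and embryo markers were not matched. In whole worms, fewer cells of a type and less RNA per cell cannot be told apart. Nothing in the labels says how the populations of a strain were separated beyond being harvested and processed on their own, so the p-values measure the spread between these populations.

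None of the 7 chaperone and *hsf-1* transcripts tested passed the threshold between the strains, 0 of 7, where 1.62% of all 13047 genes tested did (211 genes, adjusted p under 0.05 by limma). At an unadjusted p under 0.05 the count was 1 of 7, *hsp-17*, against 1802 of all genes tested. The median log2 fold change (*dcap-1(rf)* minus wt) was -0.12 over the 7 genes and -0.02 over all genes tested, with 3 genes higher and 4 lower in *dcap-1(rf)*. The arrays of the strains did not overlap for 2 of the 7 genes, *hsp-17* and *hsp-1*, where 18.6% of genes tested did not overlap. Those of *hsp-12.6*, which was not tested, did not overlap either. What set 3 of the 7 genes apart was their spread. The constitutively expressed genes and *hsf-1* differed little between populations of a strain, whereas *hsp-70*, *hsp-16.2* and *hsp-16.41* varied more than 10-fold between populations of the same strain.

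**Figure D1:**
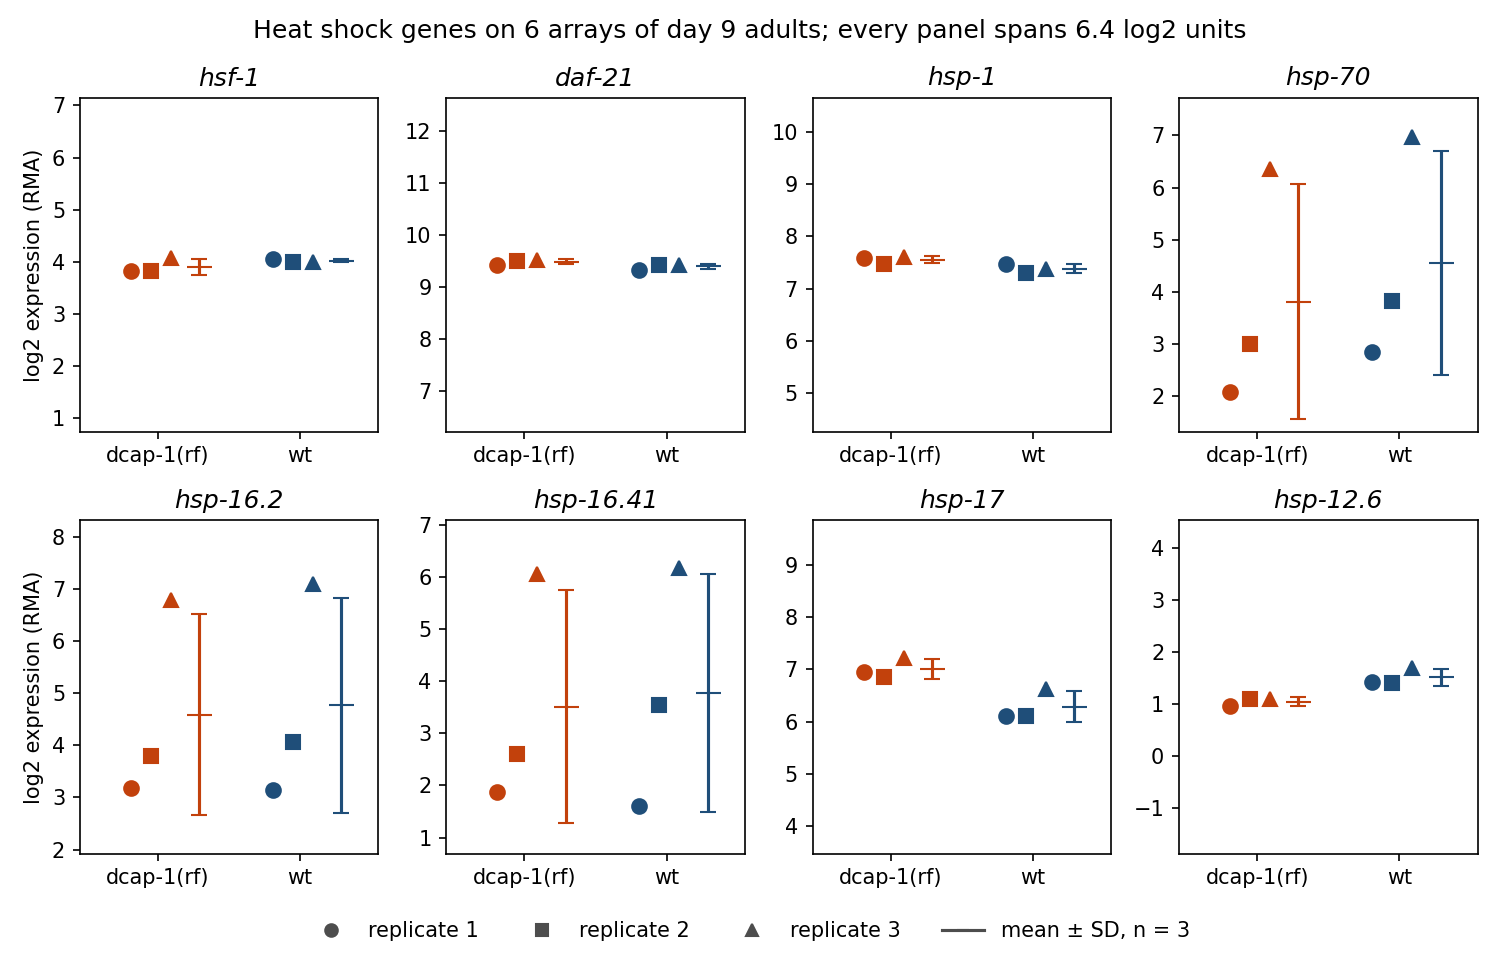
Log2 expression (RMA, vertical axis) of the 8 genes on each array, *dcap-1(rf)* on the left and wt on the right of every panel, with circles, squares and triangles for replicates 1, 2 and 3 and bars for the mean ± SD (n = 3). In *hsp-70*, *hsp-16.2* and *hsp-16.41* the replicate 3 triangles stand far above the other arrays in both strains. In each panel of *hsf-1*, *daf-21* and *hsp-1* the arrays of a strain lie within 0.3 of one another.

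The regulator itself, *hsf-1*, lies on chromosome I between 11953509 and 11961984 in WBcel235, the build of the deposited values. It measured 3.816, 3.817 and 4.071 in *dcap-1(rf)* replicates 1, 2 and 3, against 4.054, 3.999 and 4.005 in wt. Replicates 1 and 2 of *dcap-1(rf)* were below every wt array and replicate 3 was above every wt array, so the groups overlapped. The means were 3.90 ± 0.15 in *dcap-1(rf)* and 4.02 ± 0.03 in wt (SD, n = 3 each). The log2 fold change was -0.12 (SE 0.09, adjusted p = 0.604), with a 95% confidence interval from -0.33 to 0.09. The half-width of this interval, 0.21, was close to the median of 0.22 over all genes tested. When any single array was omitted the fold change stayed between -0.20 and -0.08, with adjusted p from 0.292 to 0.835. These values are of the transcript, and HSF-1 is known to be controlled largely after translation, by its trimerization, phosphorylation and entry into the nucleus, none of which an array measures.

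**Figure D2:**
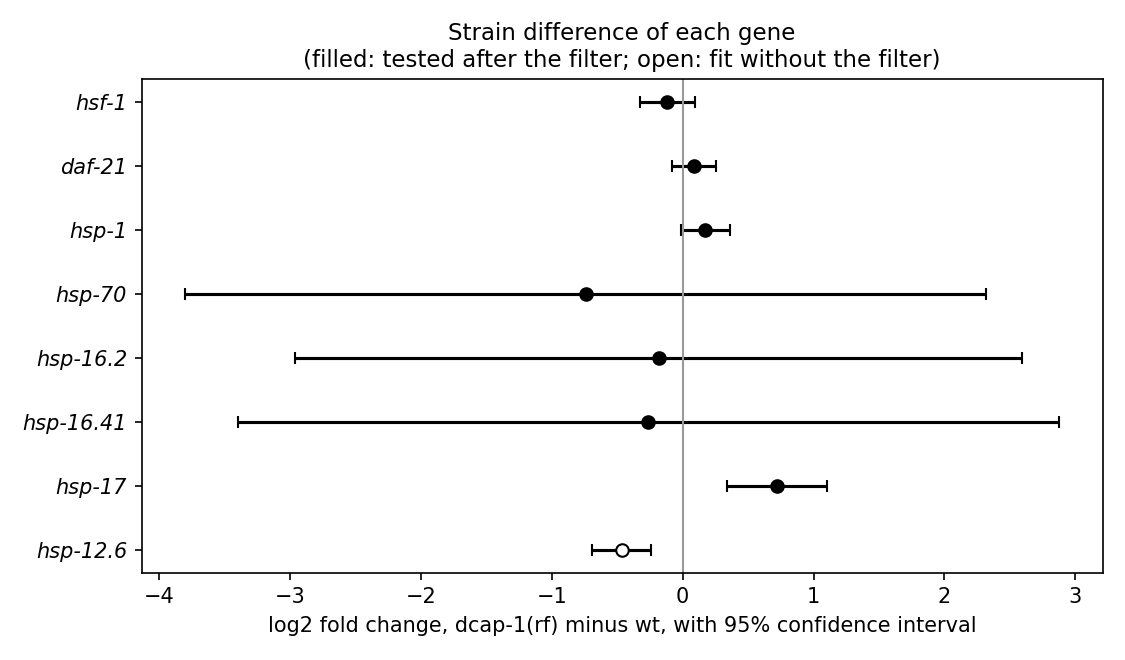
Log2 fold change (*dcap-1(rf)* minus wt, horizontal axis) of each gene with its 95% confidence interval from limma, filled for genes tested after the filter and open for *hsp-12.6*, which was fitted without it. The intervals of *hsp-70*, *hsp-16.2* and *hsp-16.41* reach about 3 to either side, those of *hsf-1*, *daf-21* and *hsp-1* about 0.2, and *hsp-17* lies to the right of 0 and *hsp-12.6* to the left.

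The constitutive HSP70 of the cytosol is encoded by *hsp-1*, on chromosome IV between 17278959 and 17281330. Its levels were 7.58, 7.48 and 7.61 in *dcap-1(rf)* replicates 1, 2 and 3, against 7.47, 7.30 and 7.38 in wt. Every *dcap-1(rf)* array was above every wt array, but *dcap-1(rf)* replicate 2 cleared wt replicate 1 by much less than the SD of either strain. The means were 7.56 ± 0.07 in *dcap-1(rf)* and 7.38 ± 0.09 in wt (SD, n = 3 each), and the log2 fold change was 0.17 (SE 0.08, adjusted p = 0.399). Its 95% confidence interval, from -0.01 to 0.36, corresponds to folds from 0.990 to 1.28.

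The HSP90 of the cytosol, which matures kinases and steroid receptors among other clients, is encoded in the worm by *daf-21*, on chromosome V between 14686160 and 14688539. It measured 9.42, 9.50 and 9.52 in *dcap-1(rf)* replicates 1, 2 and 3, against 9.33, 9.42 and 9.43 in wt. The lowest *dcap-1(rf)* array lay within the range of the wt arrays, so the groups overlapped. The means were 9.48 ± 0.05 in *dcap-1(rf)* and 9.39 ± 0.05 in wt (SD, n = 3 each). The log2 fold change was 0.09 (SE 0.07, adjusted p = 0.626), a fold of 1.06 with a 95% confidence interval from 0.947 to 1.19. This was the narrowest interval of the 7 genes tested, with a half-width of 0.17. The study lists qRT-PCR primers for this gene, which are shown because they give the part of the transcript amplified in that assay, forward and reverse, each 20 bases from 5′ to 3′, and the PCR values were not analysed here.
hsp-90/F: tctcgaaatcaacccagacc
hsp-90/R: ctcagctccctcaatcttgg

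In contrast to these, the stress-inducible genes were far more variable than the strains were different. Inducible small heat shock proteins of the α-crystallin family are encoded by *hsp-16.2*, on chromosome V between 1804334 and 1804957, and by *hsp-16.41*, between 1805178 and 1805875. The genes are 220 bases apart in the annotation and form a divergently transcribed pair. The worm's *hsp-16* genes are close copies of each other, and the *hsp-16.1*, *hsp-16.48*, *hsp-16.49* and *hsp-16.11* genes lie together within 3312 bases elsewhere on the same chromosome (9087293 to 9090604). Whether RNA of these copies also reached the probes of *hsp-16.2* and *hsp-16.41* was not tested.

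The levels of *hsp-16.2* were 3.19, 3.79 and 6.78 in *dcap-1(rf)* replicates 1, 2 and 3, against 3.14, 4.07 and 7.09 in wt. Replicate 3 was the highest and replicate 1 the lowest array of each strain, and the groups overlapped throughout. Between the highest and the lowest array the fold was 12.11 within *dcap-1(rf)* and 15.48 within wt. The means were 4.59 ± 1.93 in *dcap-1(rf)* and 4.77 ± 2.07 in wt (SD, n = 3 each), with a log2 fold change of -0.18 (SE 1.19, adjusted p = 0.958). The 95% confidence interval, from -2.96 to 2.59, spans folds from 0.129 to 6.04 in this fit, which has the strain as its only term.

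Its neighbour *hsp-16.41* measured 1.88, 2.61 and 6.05 in *dcap-1(rf)* replicates 1, 2 and 3, against 1.61, 3.55 and 6.17 in wt. Again replicate 3 was the highest and replicate 1 the lowest array in either strain. The folds between the highest and the lowest array were 18.0 within *dcap-1(rf)* and 23.5 within wt. The lowest array of each strain was below the array medians of 2.18 to 2.24, and a signal above background was not known there. The means were 3.51 ± 2.23 in *dcap-1(rf)* and 3.78 ± 2.29 in wt (SD, n = 3 each), and the log2 fold change was -0.26 (SE 1.34, adjusted p = 0.947, 95% confidence interval -3.40 to 2.87).

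The heat-inducible cytosolic HSP70, *hsp-70*, lies on another chromosome, I, between 9320325 and 9322519. It measured 2.07, 3.00 and 6.35 in *dcap-1(rf)* replicates 1, 2 and 3, against 2.85, 3.83 and 6.97 in wt. The order of the arrays was that of the *hsp-16* pair, with replicate 3 highest and replicate 1 lowest in each strain, and the groups overlapped. Its folds between the highest and the lowest array were 19.5 within *dcap-1(rf)* and 17.3 within wt. The lowest *dcap-1(rf)* array, at 2.07, was also below the array medians. The means were 3.81 ± 2.25 in *dcap-1(rf)* and 4.55 ± 2.15 in wt (SD, n = 3 each). With the strain as the only term, the log2 fold change was -0.74 (SE 1.31, adjusted p = 0.838, 95% confidence interval -3.80 to 2.32). With the replicate number as a covariate, which the labels tie to nothing shared, the adjusted p was 0.0150 by limma.

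By the SD between the arrays of a strain, these were the 3 most variable of the 13047 genes tested, in *dcap-1(rf)* in the order *hsp-70*, *hsp-16.41* and *hsp-16.2* and in wt in the order *hsp-16.41*, *hsp-70* and *hsp-16.2*. The SDs pooled over both strains were 2.257 for *hsp-16.41*, 2.202 for *hsp-70* and 1.998 for *hsp-16.2*. The next most variable gene, *cyp-35A3* (WBGene00019565_at), had a pooled SD of 1.25, and the median over all genes tested was 0.12. The spread lay mostly between replicate 3 and the others. Replicate 3 exceeded replicate 1 by 3.60 in *dcap-1(rf)* and by 3.95 in wt for *hsp-16.2*. For *hsp-16.41* the excess was 4.17 in *dcap-1(rf)* and 4.56 in wt. For *hsp-70* it was 4.28 in *dcap-1(rf)* and 4.12 in wt. No other gene tested was higher in replicate 3 than in replicate 1 by at least 2 in both strains. The replicate numbers come from the sample titles, and whether populations of the same number were grown, harvested or hybridized together is not given in the sources used here.

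**Figure D3:**
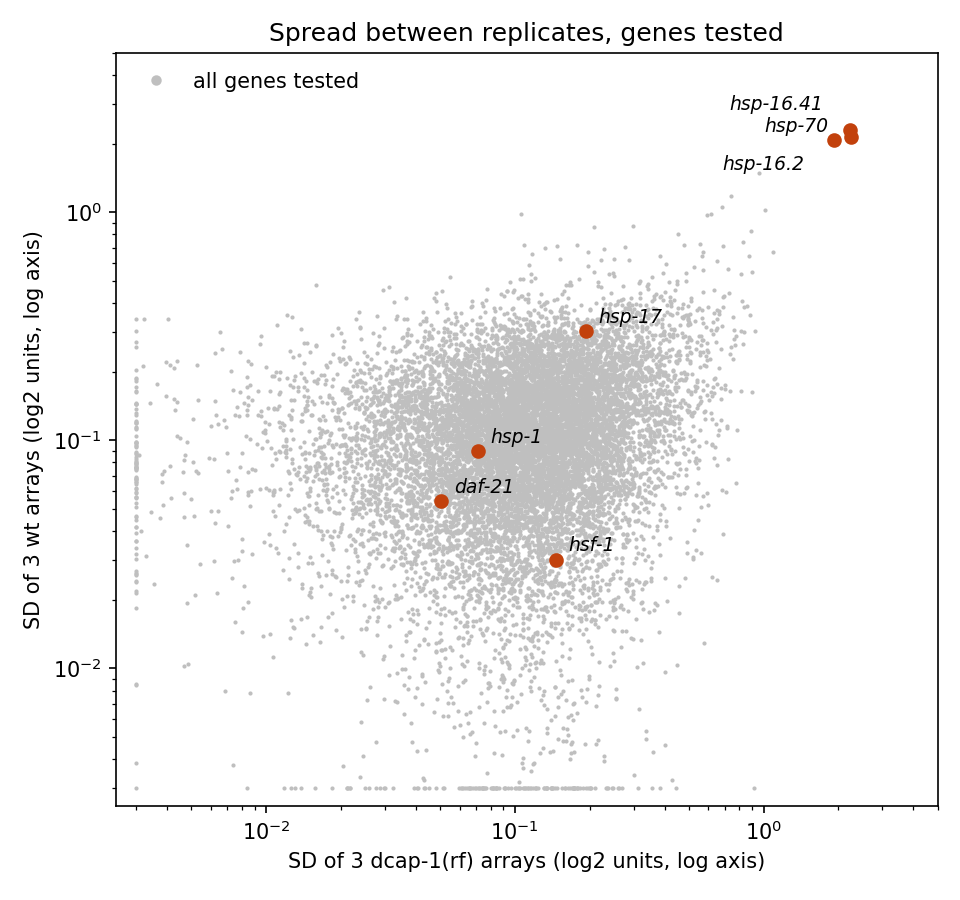
SD between the 3 *dcap-1(rf)* arrays (horizontal axis) and between the 3 wt arrays (vertical axis), in log2 units on log axes, for each of the 13047 genes tested, with SDs under 0.003 drawn at 0.003 and the heat shock genes in colour. *hsp-70*, *hsp-16.2* and *hsp-16.41* lie alone in the upper right corner with SDs between 1.93 and 2.29 in both strains, and *hsf-1*, *daf-21*, *hsp-1* and *hsp-17* lie within the cloud of the other genes.

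In the rest of the family the difference between replicate 3 and replicate 1 was under 1 in both strains. For *daf-21* it was 0.09 in *dcap-1(rf)* and 0.09 in wt. For *hsf-1* it was 0.25 in *dcap-1(rf)* and -0.05 in wt. For *hsp-1* it was 0.04 in *dcap-1(rf)* and -0.09 in wt. The small heat shock protein genes *hsp-17* and *hsp-12.6* were also higher in replicate 3 in both strains, by a smaller amount than the inducible genes. For *hsp-17* the difference was 0.28 in *dcap-1(rf)* and 0.52 in wt, and for *hsp-12.6* it was 0.15 in *dcap-1(rf)* and 0.27 in wt. The differences of *hsf-1*, *daf-21* and *hsp-1* were small beside those of the inducible genes, which exceeded 10-fold between the same arrays. *hsf-1* was highest on replicate 3 in *dcap-1(rf)* and on replicate 1 in wt. Whether its level was linked to that of the inducible genes was not tested.

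In the fit with the strain as its only term, the sign of the strain difference of the inducible genes depended on which array was counted. Leaving out *dcap-1(rf)* replicate 3 gave a log2 fold change of -2.01 for *hsp-70*, -1.28 for *hsp-16.2* and -1.53 for *hsp-16.41*. Leaving out wt replicate 3 instead gave 0.47 for *hsp-70*, 0.98 for *hsp-16.2* and 0.93 for *hsp-16.41*. Without *dcap-1(rf)* replicate 1 the values were 0.13 for *hsp-70*, 0.52 for *hsp-16.2* and 0.56 for *hsp-16.41*. Without *dcap-1(rf)* replicate 2 they were -0.34 for *hsp-70*, 0.22 for *hsp-16.2* and 0.19 for *hsp-16.41*. Without wt replicate 1 or wt replicate 2 all 3 genes stayed lower in *dcap-1(rf)*. Without both replicate 3 arrays, a choice made after the values were seen, the fold changes were -0.80 for *hsp-70* (adjusted p = 0.447), -0.12 for *hsp-16.2* (adjusted p = 0.902) and -0.33 for *hsp-16.41* (adjusted p = 0.841). None of these 3 genes passed the threshold in any of these fits. Between same-numbered arrays, *dcap-1(rf)* minus wt in replicates 1, 2 and 3 was -0.78, -0.83 and -0.61 for *hsp-70*. It was 0.04, -0.28 and -0.31 for *hsp-16.2*, and 0.27, -0.94 and -0.11 for *hsp-16.41*. Whether same-numbered arrays belong together is not given.

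**Figure D4:**
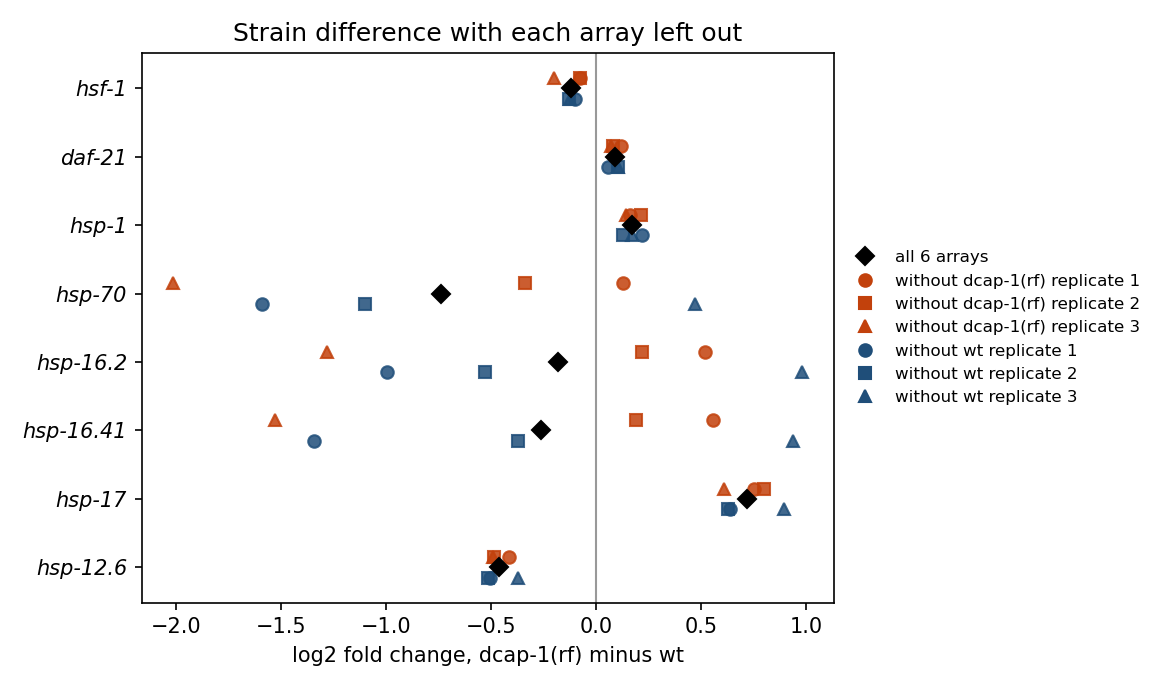
Log2 fold change (*dcap-1(rf)* minus wt, horizontal axis) of each gene with all 6 arrays (black diamonds) and after omission of each array, in the colour of its strain and the symbol of its replicate. *hsp-70*, *hsp-16.2* and *hsp-16.41* cross 0, with *hsp-70* between -2.01 and 0.47, whereas the other genes keep their sign.

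The largest difference relative to its error among the 7 genes tested belonged to *hsp-17*, a small heat shock protein gene on chromosome V between 8384799 and 8385929. Its levels were 6.94, 6.85 and 7.22 in *dcap-1(rf)* replicates 1, 2 and 3, against 6.11, 6.10 and 6.63 in wt. Every *dcap-1(rf)* array was above every wt array, and replicate 3 was the highest of each strain. The means were 7.001 ± 0.19 in *dcap-1(rf)* and 6.283 ± 0.30 in wt (SD, n = 3 each). The log2 fold change was 0.72 (SE 0.16, 95% confidence interval 0.336 to 1.101), a fold of 1.65, with adjusted p = 0.0971 by limma, which missed the threshold. The interval excludes 0 for this gene taken alone, and the adjustment over 13047 genes does not leave it among the genes called.

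Whether *hsp-17* passed the threshold varied with the fit and with the arrays counted. It passed without wt replicate 3, the highest wt array (log2 fold change 0.89, adjusted p = 0.0377), and without both replicate 3 arrays (0.78, adjusted p = 0.0303). It also passed by limma with the first component of the residuals as a covariate (adjusted p = 0.0193) and with the replicate number as a covariate (adjusted p = 0.0165). It did not pass with any of the other 5 arrays left out, where the adjusted p lay between 0.167 and 0.315. The fold change stayed between 0.61 and 0.89 with each array left out.

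A small heat shock protein of another kind is *hsp-12.6*, on chromosome IV between 9446229 and 9447228, which lacks the long tails of the HSP-16 proteins and is known as a target of the insulin-pathway factor DAF-16 as well as of HSF-1. It measured 0.958, 1.093 and 1.104 in *dcap-1(rf)* replicates 1, 2 and 3, against 1.431, 1.416 and 1.699 in wt. Every *dcap-1(rf)* array was below every wt array. All of the *dcap-1(rf)* arrays, and the average over the 6 arrays, were below the filter value of 1.33, so the gene was removed before testing, and at this level a signal above background was not known. In the fit without the filter the means were 1.052 ± 0.08 in *dcap-1(rf)* and 1.515 ± 0.16 in wt (SD, n = 3 each), with a log2 fold change of -0.46 (SE 0.10, 95% confidence interval -0.69 to -0.24, adjusted p = 0.0850). Compared with *hsp-17*, the fold change had the opposite sign, and its range with each array left out, from -0.51 to -0.37, did not reach 0.

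Across the 6 arrays, the inducible genes of the 2 chromosomes followed one another. Pearson's r was 0.99 between *hsp-16.2* and *hsp-16.41*, 0.99 between *hsp-16.2* and *hsp-70*, and 0.98 between *hsp-16.41* and *hsp-70*. These are descriptions over 6 arrays in which the replicate 3 arrays carry most of the range. The correlation of *hsf-1* was 0.61 with *hsp-70* and 0.51 with *hsp-16.41*. That of *hsp-16.2* was 0.50 with *hsf-1*, 0.46 with *daf-21*, 0.42 with *hsp-17* and 0.02 with *hsp-1*. *hsp-17* correlated more closely with the constitutive genes, with r = 0.78 for *daf-21* and 0.77 for *hsp-1*. All 3 genes had the higher mean in *dcap-1(rf)*, though none passed the threshold.

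Among 977 genes tested whose SD over the arrays was at least 0.3, the ones most like *hsp-16.2* over the 6 arrays were *hsp-16.41*, *hsp-70* and *F19B2.5* (r = 0.98). *F19B2.5* measured 4.28, 4.58 and 5.95 in *dcap-1(rf)* replicates 1, 2 and 3, against 4.09, 4.45 and 5.68 in wt. Its replicate 3 arrays were the highest of each strain and its replicate 1 arrays the lowest, over a smaller range than in *hsp-16.2*. For *hsp-70* the nearest were *hsp-16.2*, *hsp-16.41* and WBGene00011300_at (r = 0.98), a gene with no name in the tables used, which measured 6.97, 6.98 and 7.51 in *dcap-1(rf)*, against 7.01, 7.09 and 7.73 in wt. The genes nearest to *daf-21* were *atz-1* (r = 0.99), *mak-2* (r = 0.96), which encodes a kinase of the p38 type of pathway, and *nhx-2* (r = 0.95), which encodes an intestinal sodium-proton exchanger. The SD of *daf-21* over the arrays was 0.07, so this likeness concerns differences near the spread between replicates.

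Other chaperones and regulators of the pathway could be followed for 10 of 66 listed genes, since the tables that pair WormBase identifiers with names cover part of the genome. Outside the study's own list of differentially expressed genes, those tables name genes with positive fold changes, so no direction was read from the genes matched. All 10 were tested and 1 was differentially expressed, where 1.62% of all 13047 genes tested were. As the genes were matched through the study's tables, this count was not read as a result about the listed genes. The gene called was *asp-12*, an aspartyl protease gene. The study considered it together with *pqm-1* and *clec-41* as genes of transcellular chaperone signalling, in which one tissue alters chaperone levels in another. *asp-12* measured 8.98, 8.73 and 8.68 in *dcap-1(rf)* replicates 1, 2 and 3, against 7.63, 7.83 and 7.95 in wt, with no overlap. It rose by a log2 fold change of 1.00 (SE 0.12, adjusted p = 0.00648). The transcription factor gene *pqm-1* measured 5.45, 5.62 and 5.68 in *dcap-1(rf)*, against 4.96, 5.01 and 5.63 in wt, with an overlap through wt replicate 3 and a log2 fold change of 0.39 (adjusted p = 0.391). For *clec-41*, a C-type lectin gene, the log2 fold change was 0.17 (adjusted p = 0.646).

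Of 10 other small heat shock protein genes, 3 could be followed and 0 were differentially expressed, where 1.62% of all genes tested were. The highest log2 fold change was that of *hsp-43*, 0.41 (adjusted p = 0.581), and the lowest that of *sip-1*, -0.18 (adjusted p = 0.280), a small heat shock protein gene of the germline and embryo. *sip-1* measured 11.04, 11.06 and 11.03 in *dcap-1(rf)* replicates 1, 2 and 3, against 11.23, 11.19 and 11.24 in wt, with no overlap, and its name also came through the study's list. *hsp-12.2* lay between them at 0.23 (adjusted p = 0.621). In the endoplasmic reticulum, the log2 fold change was 0.17 for *hsp-3*, an HSP70 of the BiP type (adjusted p = 0.479), and 0.17 for the protein disulfide isomerase gene *pdi-3* (adjusted p = 0.405), out of 9 genes listed. The HSP90 co-chaperone gene *cdc-37*, followed as 1 of 14, had 0.17 (adjusted p = 0.602). The DAF-16 target gene *dod-3*, followed as 1 of 6, had 0.41 (adjusted p = 0.174). Its groups did not overlap, nor did those of *pdi-3* and *sip-1*, where 18.6% of all genes tested did not overlap. None of the 4 other cytosolic HSP70 and HSP110 genes, 5 mitochondrial chaperone genes, 8 chaperonin genes and 7 HSF-1 regulator genes listed could be matched to a name, and these were not analysed here.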

How the data were processed

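The authors deposited log2 expression values, 1 per gene and array, made by RMA with the BrainArray gene-level chip description on WBcel235 in R 3.3.0. The methods name surrogate variable analysis, and whether the deposited values carry it is not stated. The values were used as deposited. The comparison of the strains used limma 3.58.1 (R 4.3.3) and no term but the strain. As in the methods, the 25% of genes with the lowest average were removed before empirical Bayes moderation (3.53 prior degrees of freedom), which left 13047 genes. Genes with a Benjamini-Hochberg adjusted p under 0.05 over all genes tested are called differentially expressed. *hsp-12.6* was fitted without the filter. SEs and 95% confidence intervals are those of limma, and SDs are over the 3 arrays of each strain. With 3 against 3 arrays an exact permutation p cannot go below 0.10, so none was computed. The number of arrays limits the precision.

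Members were taken by WormBase identifier, *hsp-17* and all other names through the study's tables of genes, and positions from the RefSeq annotation of WBcel235, matched by symbol. The members and lists were chosen with earlier results of these data known. Genes named are the members, *dcap-1*, *pqm-1*, *asp-12*, *clec-41*, in each list the genes called and those with the highest and lowest fold change, and the 3 genes closest by Pearson's r over the arrays to *hsp-16.2*, *hsp-70* and *daf-21*, among genes with an SD over the arrays of at least 0.3. *hsp-12.2*, *cyp-35A3*, the 3 tissue markers given with values and the genes named under other observations were chosen after their values were seen. The fit was repeated unfiltered and with a stricter filter, with a robust trend, with the first residual component as a covariate, after median centring or quantile normalization, with array weights, with a replicate block and with every array omitted once. Leaving out both replicate 3 arrays and testing the replicate number were added after the data were seen. Python 3.11.15 with pandas 2.3.3, numpy 2.4.6 and matplotlib 3.10.9 made the summaries and figures.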

Additional observations from a re-analysis of the deposited data

How the results depend on the processing

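The number of genes differentially expressed over all genes was 211, and 328 with the first residual component as a covariate. It lay between 84 and 306 with 1 array left out. The counts were 306 when *dcap-1(rf)* replicate 3 was omitted, 122 when *dcap-1(rf)* replicate 2 was, 94 when wt replicate 1 was and 84 when wt replicate 2 was. Of the heat shock genes, 0 were called, and 1, *hsp-17*, with the first component, without wt replicate 3 and without both replicate 3 arrays (the last chosen after the data were seen), so the count lay between 0 and 1 with arrays left out. With array weights the log2 fold change was 0.15 for *hsp-16.2* and 0.042 for *hsp-16.41*. With each array left out it ranged from -1.28 to 0.98 for *hsp-16.2*, from -1.53 to 0.93 for *hsp-16.41* and from -2.01 to 0.47 for *hsp-70*. *hsf-1*, *daf-21*, *hsp-1* and *hsp-12.6* kept their sign and stayed uncalled in every alternative run for them. *asp-12* was called in every alternative with all arrays.

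The replicate numbers were not taken as pairs, since the labels tie them to nothing shared and the deviations of same-numbered arrays correlated at 0.06, 0.10 and 0.14, although each array correlated best with its own number, a hint from the data and not the design. With the replicate block, 246 genes and 2 heat shock genes were called, *hsp-17* (0.72, adjusted p = 0.0165) and *hsp-70* (-0.74, adjusted p = 0.0150). The cause of these changes was not tested. With the strain as the only term, the spread between the 3 arrays of a strain set the width of the intervals of *hsp-70*, *hsp-16.2* and *hsp-16.41*.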

Other observations

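Beyond the heat shock genes, few genes shared the high level in replicate 3. Of 13047 genes tested, 7 were higher in replicate 3 than in replicate 1 by at least 1 on the log2 scale in both strains, and these genes were chosen after their values were seen. They were *hsp-70*, *hsp-16.2*, *hsp-16.41*, *aip-1*, *F19B2.5*, *R11A5.3* and WBGene00003616_at, and at a difference of at least 2 the first 3 remained. *aip-1* encodes an arsenite-inducible protein that binds the proteasome. It measured 5.81, 6.14 and 7.06 in *dcap-1(rf)* replicates 1, 2 and 3, against 5.67, 5.81 and 6.80 in wt. Its replicate 3 arrays stood above the others in each strain, and the strains overlapped.

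In a fit with strain and replicate number, added after this spread had been seen and therefore no independent evidence of it, limma's F test of the replicate number called 4 of 13047 genes. They were *hsp-70* (adjusted p = 3.30e-04), *hsp-16.2* (adjusted p = 7.77e-04), *hsp-16.41* (adjusted p = 0.0199) and *F19B2.5* (adjusted p = 0.0199). The next were *aip-1* (adjusted p = 0.129) and *best-14* (adjusted p = 0.135), and 686 genes had an unadjusted p under 0.05. The adjusted p was 0.871 for *hsp-17*, 0.976 for *hsf-1*, 0.967 for *hsp-1* and 0.979 for *daf-21*. What the replicate number stands for was not analysed here.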
